A study of Mus musculus with 2 samples.

Results

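MHC class II molecules present peptides to CD4 T cells, and the thymic epithelium uses them to select CD4 T cells during their development. Each molecule pairs an alpha with a beta chain, is chaperoned by the invariant chain encoded by Cd74, and receives its peptide in endosomes with the help of the H2-DM dimer, which the H2-O dimer inhibits. The genes share a promoter module of X and Y boxes. The factors RFX, CREB and NF-Y bind this module and the coactivator CIITA docks on them, so that the level of CIITA is known to set the level of class II transcription. Interferon gamma is a known inducer of Ciita in non-haematopoietic cells.

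The 10 genes described here were taken by symbol: the chain genes H2-Aa, H2-Ab1 and H2-Eb1, the invariant chain gene Cd74, the loading genes H2-DMa, H2-DMb1 and H2-DMb2, the loading inhibitor genes H2-Oa and H2-Ob, and the coactivator gene Ciita. All 10 were found among the 25791 genes of both tables. The libraries came from epithelial cells of the fetal mouse thymus at 15 days post coitum, sorted for EpCAM and against CD45 and PDGFRa. The library titled humanCD3eTg has C57BL/6J x CBA/J as its strain label, and the library titled B6J has C57BL/6. Mice carrying many copies of human CD3E are generally known to lack T cells, whereas the treatment labels give presence of thymocytes for humanCD3eTg and absence for B6J. The title is therefore used for each group, as the labels go against the transgene. The sources used here do not name the transgenic line, its copy number or how many embryos were pooled. Each group has 1 library, so no test was possible, no difference was set against a spread between animals, and transgene and strain background cannot be told apart.

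Levels are in FPKM (fragments per kilobase of transcript and per 1000000 mapped fragments), which allows genes of different length to be compared. An estimated 15900000 fragments lie behind the humanCD3eTg library and 20100000 behind B6J. Differences are log2 ratios of humanCD3eTg over B6J on FPKM + 1, and a size of 1 is counted as 2-fold. The filter on low values was a mean over the libraries of 1 FPKM or more, which 13493 genes passed. Of these, 603 (4.47%) were lower in humanCD3eTg by 2-fold or more and 284 (2.1%) were higher by as much. These counts were 503 and 371 after quantile normalization, and 1129 and 147 with both libraries scaled to Epcam. Epcam, for whose protein the cells were sorted, stood at 231.4 FPKM in humanCD3eTg and 173.5 FPKM in B6J, which is no measure of purity. Foxn1, the defining transcription factor of thymic epithelium, stood at 43.7 FPKM in humanCD3eTg and 91.1 FPKM in B6J.

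The promoter module is printed for the 6 genes in which a Y box of the letters TGATTGG was found. Sequences are RefSeq promoters of build GRCm38.p6 on chromosome 17, from windows of 250 bases before to 50 bases after a gene start, and 7 of the 10 genes matched that table (H2-DMa with 2 starts). Each line shows 60 bases, 5′ to 3′ on the strand of the gene. Capitals mark the Y core ATTGG in every line and, where present, the X core GCAAC that lies 20 to 45 bases ahead of it.

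H2-Aa, chr17:34287856-34287915, minus strand: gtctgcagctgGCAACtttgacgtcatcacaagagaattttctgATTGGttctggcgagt

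H2-Eb1, chr17:34305764-34305823, plus strand: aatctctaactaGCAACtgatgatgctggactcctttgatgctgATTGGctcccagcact

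H2-DMb1, chr17:34153086-34153145, plus strand: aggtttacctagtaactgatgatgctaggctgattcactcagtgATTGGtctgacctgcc

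H2-DMb2, chr17:34145115-34145174, plus strand: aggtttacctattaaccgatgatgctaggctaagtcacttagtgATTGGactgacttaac

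H2-Oa, chr17:34092292-34092351, plus strand: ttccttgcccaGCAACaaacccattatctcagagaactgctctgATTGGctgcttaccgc

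H2-Ob, chr17:34238804-34238863, plus strand: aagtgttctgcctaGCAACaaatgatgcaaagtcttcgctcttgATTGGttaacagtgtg

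The Y core began 43 to 90 bases upstream of the gene start in these windows. The X and Y cores were both present in H2-Aa, H2-Eb1, H2-Oa and H2-Ob, with 30 to 33 bases between their first letters. Searched on both strands, TGATTGG was found in 7.82% of 32851 mouse promoters of 300 bases, and the X core followed by the Y core in 1.24%. Neither was found in either window of H2-DMa, although 1 of them holds the letters ATTGG, which 37.4% of all promoters hold. GCAAC alone was found in 35.2%. TGATTGG and ATTGG overlap, and the letters were chosen with the promoters in view, so these matches are a description of the windows and not evidence of binding.

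All of the genes except H2-Ob were lower in humanCD3eTg, 9 of the 10 by at least 2-fold, beside 2.81% of all 25791 genes. The median log2 ratio of the 10 was -2.62, beside 0.00 over all genes, of which 5790 were listed at 0 in both libraries. The range ran from -5.53 for H2-Eb1 to 0.03 for H2-Ob. H2-Oa reached 1 FPKM in B6J only and had to differ to be counted. Without it and H2-Ob, all 8 genes with at least 1 FPKM in both libraries were at least 2-fold lower, beside 2.44% of the 12615 genes of that kind. By at least 4-fold, 7 members were lower, beside 1.27% of the genes that passed the filter. In a bulk library, fewer cells with class II RNA and less RNA in each cell cannot be told apart.

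**Figure D1:**
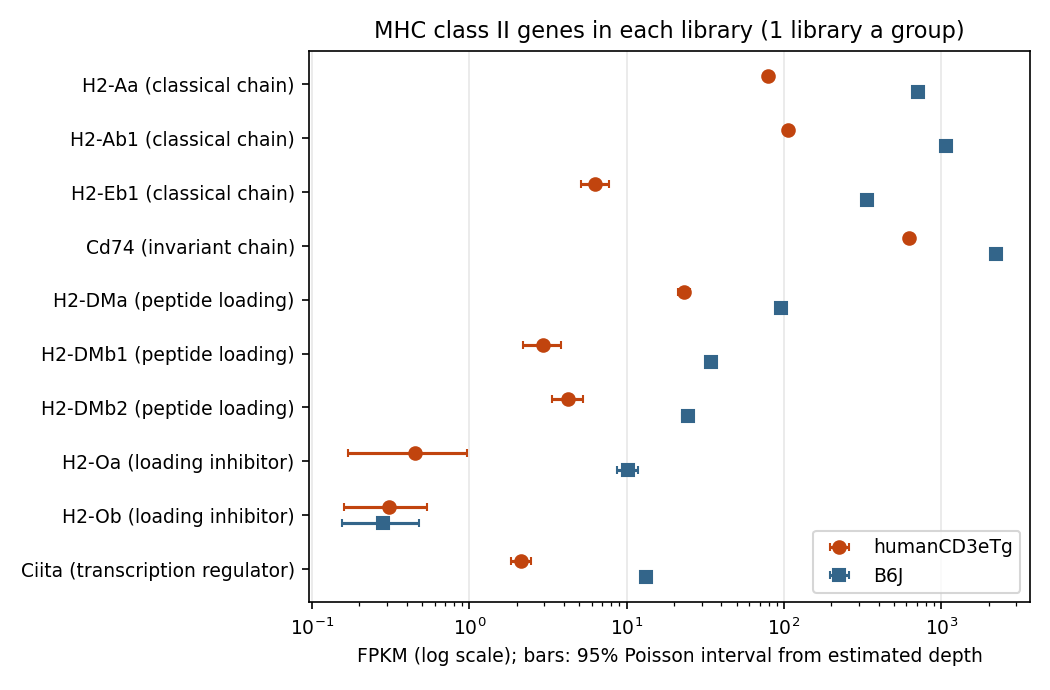
FPKM (log axis) of each class II gene in the humanCD3eTg library (circles) and the B6J library (squares), 1 library each; bars are 95% Poisson intervals from the estimated depth and cover counting error only. The humanCD3eTg value lies left of the B6J value for every gene except H2-Ob, whose values of 0.307 and 0.284 FPKM have overlapping intervals.

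Among the classical chains, H2-Ab1, the beta chain of the I-A molecule, stood at 106.6 FPKM in humanCD3eTg and 1078 FPKM in B6J (log2 ratio -3.33). H2-Aa, its alpha partner, stood at 79.7 FPKM in humanCD3eTg and 707.2 FPKM in B6J (-3.13). The H2-Aa level was 0.747 of the H2-Ab1 level in humanCD3eTg and 0.656 in B6J, so these partners differed by similar amounts.

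H2-Eb1, the beta chain of the I-E molecule, differed more. It stood at 6.33 FPKM in humanCD3eTg and 336.9 FPKM in B6J, a 53.2-fold difference in FPKM (log2 ratio -5.53 on FPKM + 1). This was the lowest ratio of all 12615 genes with at least 1 FPKM in both libraries. H2-Eb1 reached 5.94% of the H2-Ab1 level in humanCD3eTg and 31.2% in B6J. C57BL/6 mice are known to lack a functional alpha partner for this chain, which was not analysed here, so the RNA level is no measure of a surface molecule.

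The class II chain genes are among the most polymorphic in the mouse, and CBA carries another H-2 haplotype than C57BL/6. Differences in allele and differences in level cannot be told apart for these genes. The part of alleles in the values of the chain genes was not tested. Cd74 and Ciita, outside chromosome 17, were lower too, which is no measure of that part. Within the reference strain, none of the 50-base windows of the H2-Aa, H2-Ab1, H2-Eb1, H2-DMa, H2-Ob or Cd74 transcripts occurs in a transcript of another gene (GENCODE M21).

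Cd74, the invariant chain, was the most abundant member. It stood at 626.6 FPKM in humanCD3eTg and 2242 FPKM in B6J (log2 ratio -1.84), which ranked 182 among all genes in humanCD3eTg and 26 in B6J. It had the smallest difference of the 9 lower members. The ratio of Cd74 to the sum of H2-Aa, H2-Ab1 and H2-Eb1 was 3.25 in humanCD3eTg and 1.06 in B6J. That sum was 192.7 FPKM in humanCD3eTg and 2122 FPKM in B6J.

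The peptide-loading genes were lower by unequal amounts. H2-DMa, the alpha chain of H2-DM, stood at 23.2 FPKM in humanCD3eTg and 95.2 FPKM in B6J (-1.99). H2-DMb1, a beta chain, stood at 2.92 FPKM in humanCD3eTg and 34.4 FPKM in B6J (-3.18). H2-DMb2, its tandem copy, stood at 4.23 FPKM in humanCD3eTg and 24.5 FPKM in B6J (-2.29).

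H2-DMb1 had the lower level of the tandem pair in humanCD3eTg and the higher level in B6J, with 40.9% and 58.4% of their sum. The transcripts of the pair are 94.4% identical over 1255 aligned bases, and 27.2% of the 50-base windows of H2-DMb1 occur in H2-DMb2, so the split between them is uncertain. Of the windows of H2-DMb2, 32.8% occur in other genes, and 5.96% in genes other than H2-DMb1, so a part of its value is uncertain beyond the pair. The sum of the pair was 7.15 FPKM in humanCD3eTg and 59.0 FPKM in B6J (log2 ratio of FPKM -3.05). H2-DMa exceeded the summed beta chains 3.24-fold in humanCD3eTg and 1.61-fold in B6J. In RefSeq H2-DMa overlaps Brd2, which stood at 68.4 FPKM in humanCD3eTg and 72.6 FPKM in B6J, and the sources used here do not say whether strand was used.

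The genes of the inhibitor H2-O, known mainly from B cells and the thymic medulla, had the lowest levels. H2-Oa, the alpha chain, stood at 0.448 FPKM in humanCD3eTg (95% Poisson interval 0.169 to 0.960) and 10.2 FPKM in B6J (8.73 to 11.8), from about 6 and 179 estimated fragments. Its intervals do not overlap, and the log2 ratio was -2.95. H2-Oa shares 21.7% of its 50-base windows with the overlapping non-coding gene BC051537, so part of its value is uncertain.

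H2-Ob, the beta partner, stood at 0.307 FPKM in humanCD3eTg (0.159 to 0.536) and 0.284 FPKM in B6J (0.155 to 0.476), from about 12 and 14 fragments. A difference in H2-Ob was not detectable at this depth. In B6J H2-Oa reached 10.2 FPKM while H2-Ob stayed under 1 FPKM. H2-Oa amounted to 1.93% of the H2-DMa level in humanCD3eTg and 10.7% in B6J.

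Ciita, the coactivator, stood at 2.13 FPKM in humanCD3eTg and 13.3 FPKM in B6J (log2 ratio -2.19), from about 196 and 1547 estimated fragments. The gene-level value does not separate the alternative promoters of Ciita, which are known to be used by different cell types. In FPKM the difference was 6.24-fold, which is larger than that of Cd74 (3.58-fold) and smaller than that of H2-Ab1 (10.1-fold) and H2-Aa (8.87-fold).

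The order of levels in humanCD3eTg was Cd74, H2-Ab1, H2-Aa, H2-DMa, H2-Eb1, H2-DMb2, H2-DMb1, Ciita, H2-Oa and H2-Ob. In B6J it was Cd74, H2-Ab1, H2-Aa, H2-Eb1, H2-DMa, H2-DMb1, H2-DMb2, Ciita, H2-Oa and H2-Ob. The places of H2-Eb1 and H2-DMa, and of H2-DMb1 and H2-DMb2, were exchanged between the libraries. By counting error alone, neighbours with overlapping intervals in humanCD3eTg were H2-Eb1 with H2-DMb2, H2-DMb2 with H2-DMb1, H2-DMb1 with Ciita, and H2-Oa with H2-Ob. In B6J no neighbours in this order had overlapping intervals.

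**Figure D2:**
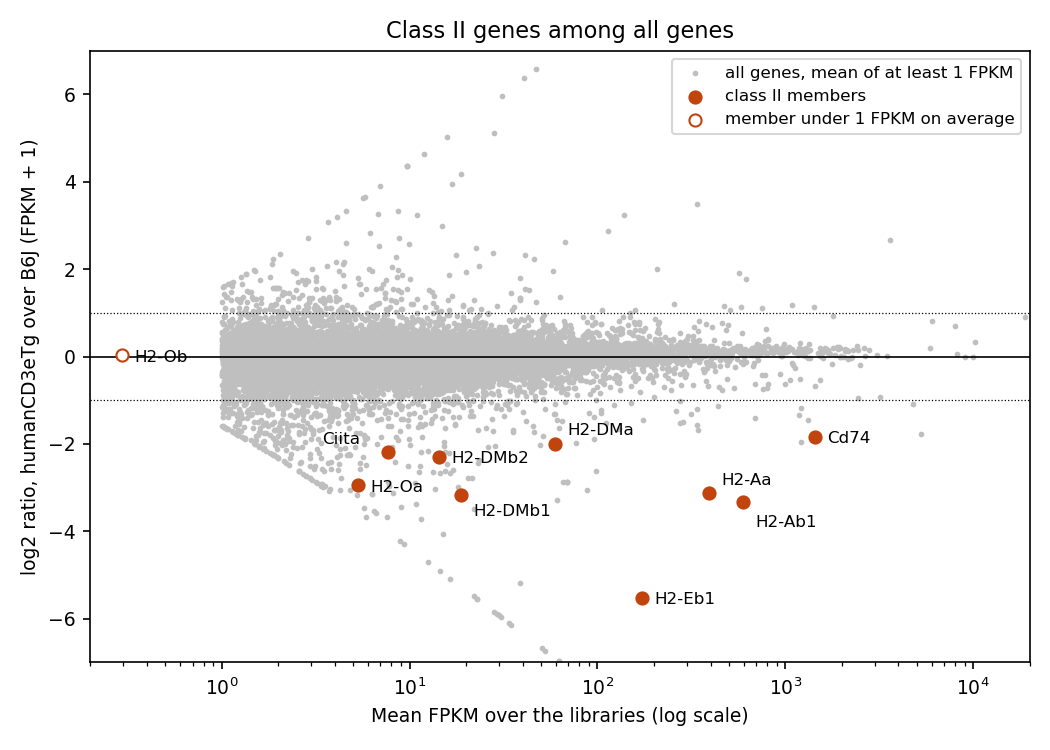
log2 ratio of humanCD3eTg over B6J on FPKM + 1 against the mean FPKM (log axis) for the 13493 genes that passed the filter (grey) and the class II genes (red, H2-Ob open because its mean is under 1 FPKM). Dotted lines mark 2-fold, and 32 genes lie beyond the axis limits of 7. H2-Eb1, H2-Ab1 and H2-Aa lie below nearly all genes of their level, at -5.53, -3.33 and -3.13.

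Genes of other function on chromosome 17, most of them outside the stretch of class II genes, had a median ratio near that of all genes. Of 32 measured MHC neighbours outside antigen presentation, 27 passed the filter. Their median was -0.14, with 2 lower by 2-fold or more and 1 higher by as much, beside -0.05 over all genes. In the stretch from Col11a2 to Notch4, which holds the class II genes of this chromosome, only Col11a2 and Brd2 of these neighbours passed the filter. Brd2, a chromatin reader between H2-Oa and H2-DMa, had a log2 ratio of -0.08. Col11a2, a collagen gene next to H2-Oa in these tables, stood at 5.65 FPKM in humanCD3eTg and 1.29 FPKM in B6J (1.54). The lower neighbours were Gpsm3, a G protein regulator known from leukocytes (1.5 FPKM in humanCD3eTg and 5.88 FPKM in B6J), and Ager, a pattern receptor (1.24 and 4.33 FPKM in the same order).

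Between the class II genes lie 4 genes of the class I pathway, and all of them were lower. Psmb8, an immunoproteasome subunit, had a log2 ratio of -3.44, and Tap1, of the peptide transporter, had -2.43. Tap2, its partner, had -1.59, and Psmb9, another immunoproteasome subunit, had -1.65. The whole class I list had a median of -1.56 over 12 genes, 9 of them lower by 2-fold or more, and 8 of the 11 with at least 1 FPKM in both libraries were. H2-D1 stood at 10.5 FPKM in humanCD3eTg and 111.3 FPKM in B6J, and H2-K1 at 26.8 and 169.6 FPKM in the same order. Both heavy chain genes have near-identical relatives and uncertain values. The H-2 haplotype differs between the strains here too, and the part of alleles in these values was not tested. Nlrc5, the class I counterpart of Ciita, stood at 0.206 FPKM in humanCD3eTg and 0.548 FPKM in B6J.

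**Figure D3:**
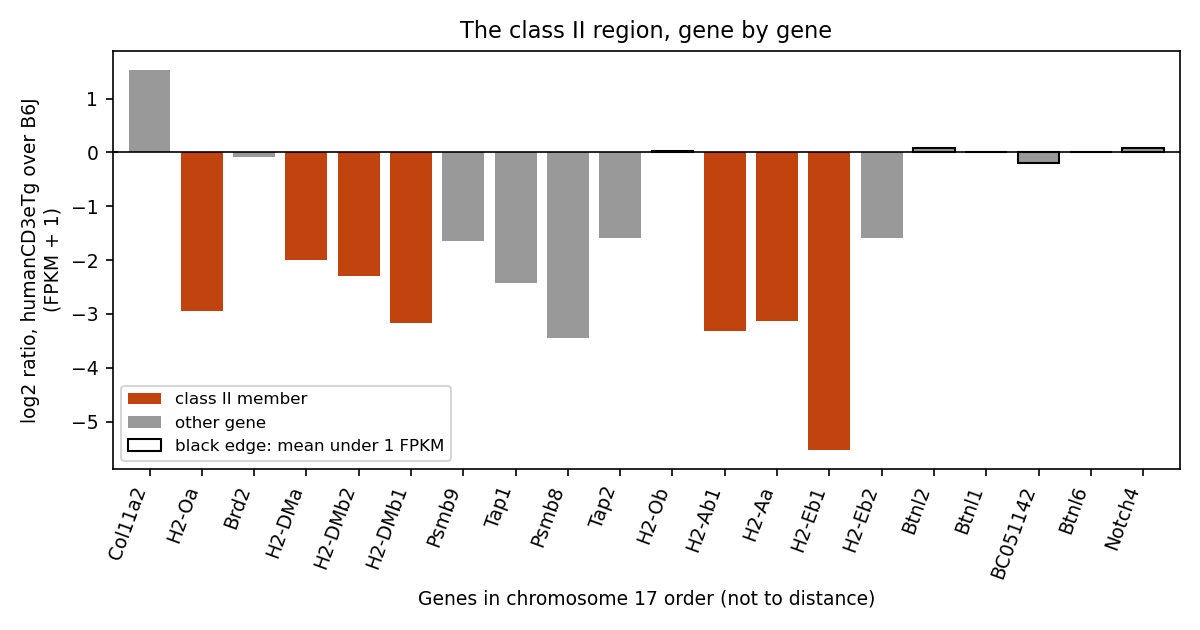
log2 ratio of humanCD3eTg over B6J on FPKM + 1 for 20 genes in their order along chromosome 17 from Col11a2 to Notch4 (RefSeq order, not to distance), with class II members in red and a black edge for genes with a mean under 1 FPKM. The class II genes other than H2-Ob and the 4 class I pathway genes among them lie between -1.59 and -5.53, while Brd2 lies at -0.08.

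The factors of the class II promoter list, of which only some bind the X and Y boxes, did not share the difference. None of the 13 genes of this list differed by 2-fold in either direction, and the median was -0.07. Rfx5, which encodes the largest RFX subunit, stood at 8.44 FPKM in humanCD3eTg and 8.91 FPKM in B6J. Rfxank, another RFX subunit, stood at 5.91 FPKM in humanCD3eTg and 7.57 FPKM in B6J. Nfyb, of the Y box factor NF-Y, had the highest ratio of the list, with 14 FPKM in humanCD3eTg and 9.49 FPKM in B6J (0.52). Ciita, the coactivator that docks on RFX, CREB and NF-Y, had -2.19.

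Upstream of Ciita, 4 of 12 genes of interferon gamma signalling and CIITA control were at least 2-fold lower (median -0.49) and none at least 2-fold higher. Ifngr1, the ligand-binding receptor chain, stood at 7.22 FPKM in humanCD3eTg and 19.9 FPKM in B6J (-1.35). Socs3, a feedback inhibitor, had -1.52. Irf8, a transcription factor of the same response and of myeloid cells, had a log2 ratio at the 2-fold limit, with 22.4 FPKM in humanCD3eTg and 45.9 FPKM in B6J. Irf1, a direct activator of Ciita, stood at 137.1 FPKM in humanCD3eTg and 181.3 FPKM in B6J (-0.40). Ifng itself, picked after its values were seen, stood at 0.189 FPKM in humanCD3eTg and 1.24 FPKM in B6J.

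Interferon gamma targets outside the class I and class II lists were lower as well, 13 of 14 by at least 2-fold (median -1.55). Only 7 of them reached 1 FPKM in both libraries, of which 6 were at least 2-fold lower, and the rest had to be lower to be counted. The largest differences were those of Ubd, a ubiquitin-like protein gene listed at 0 in humanCD3eTg and at 17.7 FPKM in B6J, and Ifi47, an interferon-induced GTPase gene (0.0429 FPKM in humanCD3eTg and 6.83 FPKM in B6J).

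The proteases and carriers that prepare class II cargo differed little for the most part. Of 10 endosomal processing genes that passed the filter 1 was at least 2-fold lower, and the median was -0.10. That gene was Ctss, the cathepsin of haematopoietic antigen-presenting cells, at 0.877 FPKM in humanCD3eTg and 3.73 FPKM in B6J (-1.33), which reached 1 FPKM in B6J only. Ctsl, the cathepsin that processes the invariant chain in cortical epithelium, stood at 1261 FPKM in humanCD3eTg and 1817 FPKM in B6J (-0.53). Prss16, a serine protease of cortical thymic epithelium, was listed at 992.4 FPKM in humanCD3eTg and 1409 FPKM in B6J (-0.51). Ctsh went the other way and had the highest log2 ratio of the list (0.82). In all, 6 of the 10 genes were lower and 4 higher in humanCD3eTg.

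Genes of class II traffic and CD74 partners had a median of -0.22 over 9 genes. Of these 2 were at least 2-fold lower: Cxcr4, a chemokine receptor that associates with CD74, at 4.23 FPKM in humanCD3eTg and 11.6 FPKM in B6J, and Cd82, a tetraspanin of class II compartments, at 23.4 and 50.6 FPKM in the same order. Cd83, which protects class II molecules from ubiquitin-driven loss in the thymic epithelium, stood at 39.2 FPKM in humanCD3eTg and 60.3 FPKM in B6J (-0.61). Lamp2 had a log2 ratio of -0.69. Of the 9 genes 6 were lower and 3 higher in humanCD3eTg. The highest ratio was that of Cd63, at 256.1 FPKM in humanCD3eTg and 165.7 FPKM in B6J (0.63).

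**Figure D4:**
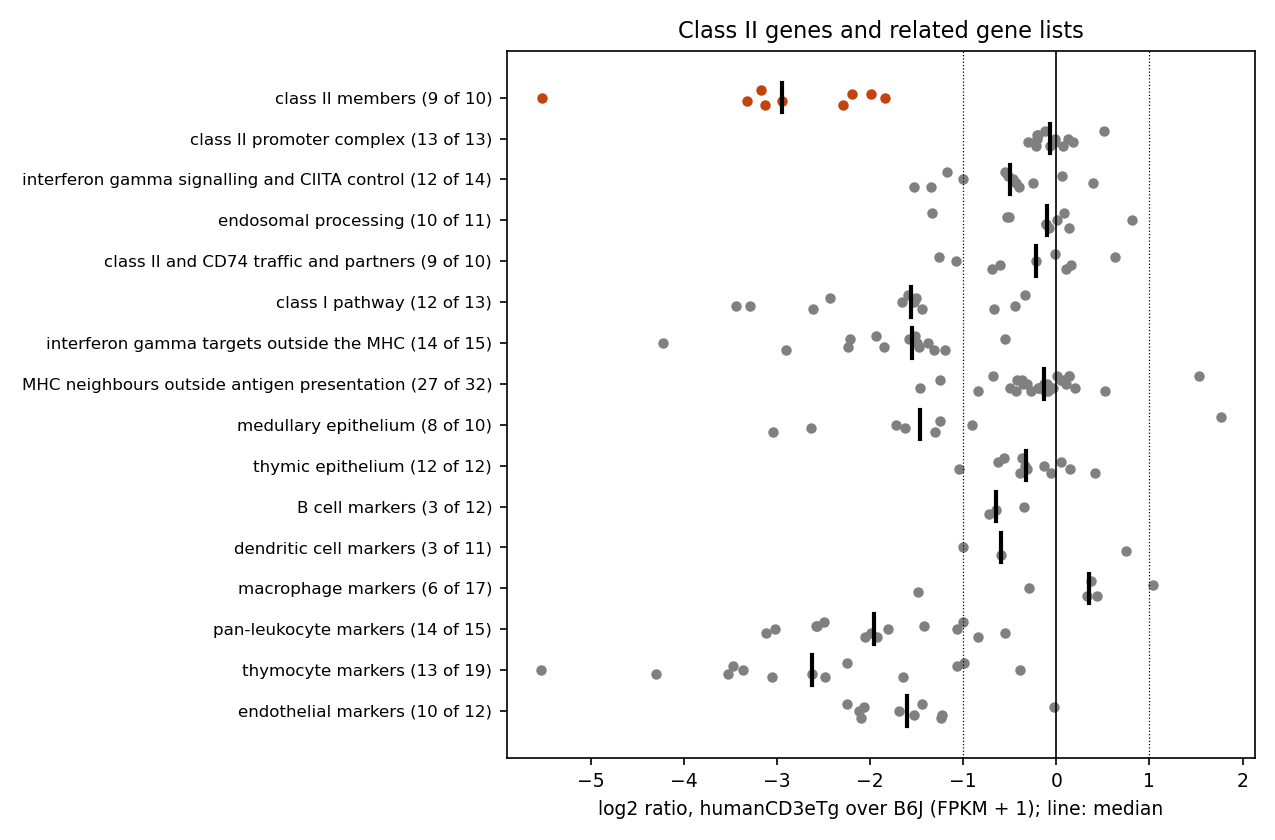
log2 ratio of humanCD3eTg over B6J on FPKM + 1 for each gene that passed the filter (points) and the median (line) of the class II members (red) and 15 related lists, with the number plotted of the number measured. The members have a median of -2.95 here, the promoter complex -0.07 and the MHC neighbours -0.14.

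Markers of other cells that can carry class II went in both directions, with more lower than higher in humanCD3eTg in each list without the filter. The 12 B cell markers summed to 8.62 FPKM in humanCD3eTg and 15.0 FPKM in B6J, and 8 of them were lower and 4 higher in humanCD3eTg. The 3 that passed the filter were all lower, none by 2-fold on FPKM + 1. Cd79a, of the B cell receptor, stood at 1.35 and 2.89 FPKM in the same order, 2.14-fold lower in FPKM. The 11 dendritic cell markers summed to 30.2 FPKM in humanCD3eTg and 53.1 FPKM in B6J, mostly from Irf8, and 6 were lower and 3 higher in humanCD3eTg. Itgax, which encodes CD11c, stood at 0.0990 FPKM in humanCD3eTg and 0.0523 FPKM in B6J, and Clec9a and Cd209a were listed at 0 in both libraries. The 17 macrophage markers summed to 27.2 FPKM in humanCD3eTg and 30.6 FPKM in B6J, and 10 of them were lower and 7 higher in humanCD3eTg. Csf1r, a growth factor receptor of macrophages, stood at 1.24 FPKM in humanCD3eTg and 0.667 FPKM in B6J. Mpeg1, a pore-forming protein of macrophages, stood at 0.519 FPKM in humanCD3eTg and 3.26 FPKM in B6J (-1.49), and C1qb, a complement subunit, at 2.13 and 0.524 FPKM in the same order (1.04). The part of these cells in the class II levels was not tested.

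Markers of leukocytes in general, thymocytes, vessels and medullary epithelium were lower together with the class II genes, and their part in the result was not tested. Of 14 pan-leukocyte genes 12 were at least 2-fold lower (median -1.96, sums 81.5 FPKM in humanCD3eTg and 232.3 FPKM in B6J). With at least 1 FPKM in both libraries there were 6 genes of this list, 4 of them at least 2-fold lower. Ptprc, which encodes CD45, stood at 0.358 FPKM in humanCD3eTg and 4.18 FPKM in B6J. Of 13 thymocyte genes 11 were at least 2-fold lower (median -2.63, sums 12.3 and 179.7 FPKM in the same order), with Cd3g and Cd3d among 6 of the 19 listed at 0 in humanCD3eTg. Only 6 of the 13 reached 1 FPKM in both libraries, and 5 of those were at least 2-fold lower. Of 10 endothelial genes 9 were at least 2-fold lower (median -1.61, sums 18.2 and 65.3 FPKM in the same order), and 4 of the 5 with at least 1 FPKM in both libraries were. In these 3 lists the genes that reached 1 FPKM in B6J only passed the filter through B6J, where they are high, so their direction was set by the filter.

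In the medullary list, whose epithelial cells are known for high class II, the median was -1.47 over 8 genes, with 6 lower by 2-fold or more and 1 higher by as much. Of the 5 with at least 1 FPKM in both libraries 3 were lower by 2-fold or more, and the other 3 lower genes, Aire, Cd80 and Fezf2, passed the filter through B6J only and had to be lower. Aire, the regulator of tissue-restricted antigens, stood at 0.0366 FPKM in humanCD3eTg and 7.53 FPKM in B6J, and Cd40, the receptor of CD40 ligand, stood at 2.40 and 20.1 FPKM in the same order. Krt5, a keratin of medullary epithelium, was the higher gene, at 955.5 FPKM in humanCD3eTg and 280.2 FPKM in B6J, which made the list sum larger in humanCD3eTg (1033 and 481.8 FPKM). The general thymic epithelial list had a median of -0.33 over 12 genes, with Foxn1 the 1 gene at least 2-fold lower.

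Among 6694 other genes averaging 10 FPKM or more, 40 had a log2 ratio at or below the median of the members that passed the filter (-2.95). The nearest to that median over the 2 libraries were Fabp4, a fatty acid carrier known from fat cells and capillary endothelium (-2.98), Alox12e, a lipoxygenase (-2.89), Coro1a, an actin regulator of leukocytes (-3.03), and 3 copies of the small nucleolar RNA gene Rnu3b, Rnu3b1, Rnu3b2 and Rnu3b3, listed at the same values (-2.87).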

How the data were processed

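For each library the authors deposited a table of FPKM by gene symbol. Per the submitters' processing notes, TopHat2 2.0.8, Bowtie2 2.1.0, Cufflinks 2.1.1 and build mm9 were used, with no role stated; annotation, filters and strand use were not given in the sources used here. Libraries were made with a TruSeq kit from total RNA, per the labels' protocols. The reference used here is a later build, so the printed promoter coordinates are those of GRCm38.p6 and not of mm9. Sequences, gene order and transcript lengths come from GRCm38 as well.

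From the FPKM, log2 ratios on FPKM + 1 were computed in Python 3.11.15 for each gene; a mean of at least 1 FPKM was the filter and 2-fold the limit. This pseudocount understates differences of low genes. The computation was tested on simulated data made from the higher B6J values only, which is no test for genes of low level. Each gene's fragments were estimated from the steps of low FPKM values: the most frequent ratio among 2265 low genes (1.26) gave the ratio of the steps, and lengths of 400 single-transcript genes, less 210 bases, their size. The ratio was that of 102 of these genes and can be one of whole multiples of the steps. Step size and the 210 bases were chosen for the largest share of values within 0.1 of a whole number, 51.1%. An arbitrary step would give 20%, but a share made largest by choice is no test of the step. Fragment numbers are thus approximate and use the first-numbered GENCODE M21 transcript of each gene, and no count test was run. Intervals are 95% Poisson and cover counting error only. A value of at most 0.001 FPKM is called listed at 0 and can be a failed estimate.

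The members and 15 related lists were chosen with earlier results of these data known. Of 228 listed genes 224 were found under the symbols used. Named genes are all members, up to 5 per list with the largest ratio, 15 fixed genes, and the 6 genes nearest in ratio. Ifng and Tap2 were added later, with their values known. A gene of the interferon gamma signalling list that the rule names is not reported here. Alternatives tried were quantile normalization, centring on the median, rescaling to a total of 1000000, scaling to Epcam, pseudocounts of 5 and 0.1, a filter at 5 FPKM or none, and limits of 1.5-fold and 4-fold; summing H2-DMb1 and H2-DMb2 was added after seeing the data.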

Additional observations from a re-analysis of the deposited data

How the results depend on the processing

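No paired analysis was possible because each group has 1 library, and none could be left out. A value was taken as moved when it changed by 1.5-fold or more. The 9 members other than H2-Ob stayed at least 2-fold lower in all 54 combinations with a pseudocount, scaling or centring alternative, and H2-Ob ranged from -0.06 to 0.15. At a limit of 4-fold 7 members were counted, and with H2-DMb1 and H2-DMb2 summed 8 of 8 that passed the filter. The median of the members was -1.83 with a pseudocount of 5. Scaling to Epcam lowered the median of all genes to -0.41, beside -0.05 as deposited. Of 119 list medians under alternatives 13 moved. With a pseudocount of 0.1, interferon gamma targets had -2.28, medullary epithelium -2.17, pan-leukocyte markers -2.84, thymocyte markers -4.12 and endothelial markers -2.44. With a pseudocount of 5, the last 3 had -0.98, -1.38 and -0.73. With no filter, thymocyte markers had -1.65 and dendritic cell markers -0.0018, and with a filter at 5 FPKM thymocyte markers had -3.47. Macrophage markers, at 0.35, changed sign to -0.14 with no filter (all 17 genes) and to -0.29 both with a filter at 5 FPKM (1 gene left) and after rescaling to a total of 1000000. The promoter complex, at -0.07, had 0.0028 after quantile normalization. The size for genes of low level follows the pseudocount by construction; other causes were not tested. Depth limits H2-Oa and H2-Ob most.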

Other observations

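H2-Eb2, a class II beta chain gene beside H2-Eb1 chosen with its values known, was listed at 0 in humanCD3eTg and at 2.03 FPKM in B6J. The neighbours H2-Ke2 and H2-Ke6, named for the region and not for antigen presentation, stood at 82.8 and 73.9 FPKM in humanCD3eTg and at 91.4 and 62.8 FPKM in B6J. The 10 class II members together made up 0.121% of the FPKM total in humanCD3eTg and 0.665% in B6J.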
